A study of Mus musculus with 2 samples.

Results

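Msmb-rich cells are the cells of a mouse prostate library in which Msmb supplied at least 1% of the unique molecular identifiers (UMIs, the tags by which single RNA molecules are counted). Tgm4 had to supply under 0.5% and Sbp and Spink1 together at most 5%. Only barcodes with at least 500 genes and at most 10% mitochondrial UMIs were considered. The rule chose 146 of 3709 kept cells, 3.94% (exact 95% Clopper-Pearson interval 3.33% to 4.61%), from 6565 barcodes in the whole series. The members were chosen on the measured levels of these 4 genes, and their levels are given as a description.

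The tissue was prostate of male C57BL6 mice, with no treatment named, dissociated with papain and TrypLE and profiled with the 10x Genomics 3' assay. The cells described come from the library of the proximal and periurethral region, around and near the urethra, made with kit version 3. The other library, made with kit version 2, came from the ventral lobes. Each group had 1 library aimed at 5000 cells, so no p-value is given, and intervals cover counting error only. Age and the number of animals behind each library are not given in the sources used here.

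Msmb encodes beta-microseminoprotein, a small protein that luminal cells of the prostate secrete into seminal fluid. The lobes of the mouse prostate secrete different mixtures. Luminal cells rich in Msmb and in probasin (Pbsn) are known from the dorsal and lateral lobes, cells rich in Tgm4 from the anterior lobe and cells rich in Sbp and Spink1 from the ventral lobe. Secretory luminal cells depend on androgen and carry a large endoplasmic reticulum (ER), where secreted proteins are folded and modified.

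The 3709 kept cells came from 4344 barcodes with 97817603 UMIs, and 635 barcodes were removed. The Msmb-rich cells were deep: they held 1320 to 260594 UMIs, with a median of 66132.5, against a median of 14904 in the other 3563 cells. They made up 10.6% of the UMIs of all kept cells. Their median cell held 7049 genes and 4.60% mitochondrial UMIs. For comparison, 363 Tgm4-rich cells (Tgm4 at least 0.5%, median 32941 UMIs), 161 Sbp/Spink1-rich cells (over 5%, with Tgm4 under 0.5%, median 72185 UMIs) and 1437 cells with proximal luminal markers and none of these secretory rules met (median 20434 UMIs) were taken from the same library. The 53 macrophages (median 11865 UMIs), which should lack prostate secretions, served as a gauge of free RNA. No barcode was shared between the libraries.

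The label of dorsolateral type could not be checked, because no dissection of those lobes was analysed here. The luminal label could. All 10 luminal markers were found in at least 25% of the Msmb-rich cells. Their summed level had a median of 21063 CPM (UMIs scaled to a total of 1000000) per cell, against 421 CPM in macrophages. Summed over cells it was 22335 CPM, most of it from Pbsn, which supplied 1.88% of UMIs. In the other cells 9 of the 10 also reached 25%, and the sum was 10961 CPM. Msmb-rich cells held 10.6% of all kept UMIs. Their share of the library's UMIs was smaller for Krt8, Krt18, Krt19, Epcam, Cd24a and Cldn3, and larger for Pbsn and Hoxb13. Of the 6 distal luminal markers, 5 were found in at least 25% of the cells, as in Tgm4-rich and Sbp/Spink1-rich cells. So were 8 of the 9 proximal luminal markers, so passing that limit did not separate these lists. The 9 summed to 635 CPM, against 11034.5 CPM in proximal luminal-type cells. The 6 macrophage markers summed to 6.14 CPM, against 9070 CPM in macrophages, and C1qc was at 0. The 3 ionocyte markers were at 0, as was the endothelial receptor Kdr. The 5 endothelial markers summed to 87.4 CPM, of which Pecam1 made up 86.7 CPM, and Cdh5 stood at 0.101 CPM. Cells were screened for at least 2 UMIs in each of at least 2 defining genes of macrophages, fibroblasts, endothelial or basal cells. Of 146 cells, 3 met this, 2 for fibroblasts and 1 for basal cells. Genes of proximal luminal cells and of other secretory cells were not part of this screen. No doublet caller was run.

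Promoters are shown for genes that stood high together in the Msmb-rich cells, because androgen acts through short DNA elements. Each is the 250 bases before the transcript start, 5′ to 3′ on the gene's strand, from RefSeq on GRCm38.p6, with the androgen response motif AGAACA or its reverse TGTTCT in capitals. Pbsn lies at chrX:77853501-77853750 on the minus strand, Defb10 at chr8:21858651-21858900 on the plus strand and BB123696 at chr13:52757206-52757455 on the minus strand.
Pbsn promoter: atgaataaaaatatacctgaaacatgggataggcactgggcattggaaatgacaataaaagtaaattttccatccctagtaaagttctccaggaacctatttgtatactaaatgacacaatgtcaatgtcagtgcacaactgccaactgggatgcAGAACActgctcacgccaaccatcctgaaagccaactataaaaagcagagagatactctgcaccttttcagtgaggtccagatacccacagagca
Defb10 promoter: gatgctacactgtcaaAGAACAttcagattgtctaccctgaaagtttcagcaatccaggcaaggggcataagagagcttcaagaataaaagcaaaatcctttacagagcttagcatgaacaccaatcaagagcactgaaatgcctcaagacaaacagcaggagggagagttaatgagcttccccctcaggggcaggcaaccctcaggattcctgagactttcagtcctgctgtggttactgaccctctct
BB123696 promoter: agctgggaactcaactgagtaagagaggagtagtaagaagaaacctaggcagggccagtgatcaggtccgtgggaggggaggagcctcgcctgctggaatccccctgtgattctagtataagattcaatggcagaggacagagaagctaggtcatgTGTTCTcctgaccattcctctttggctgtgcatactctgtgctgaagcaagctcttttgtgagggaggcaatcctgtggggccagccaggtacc
The match starts 95 bases before the transcript start in Pbsn, 234 in Defb10 and 94 in BB123696. Of the 30 genes described below as highest, 21 had a promoter in the table, and 8 of these (38.1%) held this motif on either strand in the window from 250 bases before to 50 after a start. Among all 27025 genes of the table the share was 21.3%. The forkhead motif TGTTTAC, or GTAAACA on the other strand, was in 1 of 21 (4.76%), against 4.05% of all genes. A match of these letters is a description and not a binding site.

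Genes of secreted proteins were the most abundant in the Msmb-rich cells. The beta-defensin Defb50 alone supplied 10.4% of their UMIs and Msmb 6.23%, followed by Pbsn at 1.88% and 9530002B09Rik at 1.32%. Wfdc3 and Defb1 supplied 0.667% and 0.665%. The 25 genes with the most UMIs, which include mitochondrial and ribosomal genes, supplied 31.0%.

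The level of Msmb per cell ran from 1.15% to 11.7% of UMIs, with a median of 5.84% and quartiles of 4.41% and 7.39%. In the other cells the median was 0.00617%. The rule's limit fell in a sparse stretch. The lowest members held 1.15%, 1.55% and 1.60%, and the highest cells below the limit that met the other limits 0.939%, 0.774% and 0.703%. A further 11 kept cells passed the Msmb limit but not the others, 5 because of Tgm4 (0.730% to 1.27%) and 6 because of Sbp and Spink1 (5.79% to 37.0%). These 11 cells, with a median of 79126 UMIs, held 78.2% of all Msmb UMIs outside the members. Without them, Msmb in the other cells stood at 104 CPM instead of 470 CPM. Macrophages held 316 CPM (274 to 362) and proximal luminal-type cells 85.4 CPM. The macrophage sum rests on few cells, since the median macrophage held 0.00767% Msmb, the 90th percentile was 0.0237% and the highest cell held 0.323%. Another 7 barcodes met the rule for the 4 genes but not the cell filter.

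**Figure D1:**
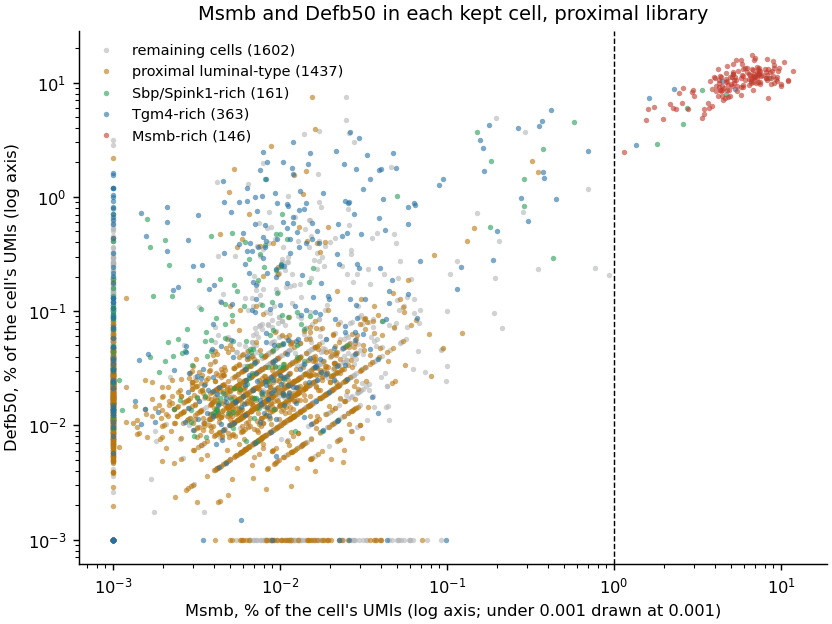
Share of each kept cell's UMIs from Msmb (x axis, %, log scale) and from Defb50 (y axis, %, log scale) in the proximal library, 1 point per cell, coloured by cell set, with the dashed line at the rule's Msmb limit of 1%. The 146 Msmb-rich cells form a group at a median of 5.84% Msmb, and the 11 Tgm4-rich or Sbp/Spink1-rich cells right of the line lie next to it.

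Against all other cells of the library, 60 of 16440 genes with at least 50 UMIs were at least 4-fold higher in Msmb-rich cells (0.365%) and 260 at least 4-fold lower (1.58%). Ratios are log2 ratios of CPM plus 10, and the median over all counted genes was -0.08. This contrast contains the rule, so nothing is read from these counts. Leaving out the 21 members of sub-cluster 4, described below, gave 63 higher and 340 lower genes.

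Defb50 (chr8:21823539-21831296, plus strand) was found in all 146 cells, at 24651 to 172659 CPM with a median of 105498 CPM. Summed over cells it stood at 103715 CPM against 1983 CPM in the other cells, a fold of 52.3 (52.0 to 52.6). Macrophages held 1663 CPM of Defb50, proximal luminal-type cells 507 CPM, Tgm4-rich cells 4692 CPM and Sbp/Spink1-rich cells 5942 CPM. The 11 cells past the Msmb limit but outside the rule held 34.96% of the other cells' Defb50 UMIs, and without them the other cells stood at 1304 CPM. Of these 11 cells, 6 are Sbp/Spink1-rich. Against Sbp/Spink1-rich cells the log2 ratio of Defb50 was 4.12, and 5.30 without the 5% of cells with the most UMIs. The Msmb-rich cells held 86.1% of the library's Defb50 UMIs.

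Defb50 was not the sole defensin gene of its neighbourhood with this pattern. Beta-defensins are short cationic peptides that kill microbes at epithelial surfaces. Defb1 (chr8:21776599-21795185) was found in all 146 cells at 285 to 11668 CPM with a median of 6526 CPM, and its summed level was 6652 CPM against 206 CPM, a fold of 32.3 (31.7 to 32.8). Defb10 (chr8:21858901-21862011) stood at 97.7 CPM against 0.939 CPM, a fold of 104 (82.7 to 133), and was found in 131 cells. AY761184 (chr8:21702519-21703645) stood at 184.7 CPM against 2.83 CPM, a fold of 65.3 (57.0 to 75.1), and was found in 139 cells.

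These 4 genes lie within 159 kb on mouse chromosome 8. Of the measured genes, 6 have a position in that window in the annotation (GENCODE M21 on GRCm38). The window was chosen after the values were seen. The other 2 were Defb2, at 14.4 CPM against 3.33 CPM, and the alpha-defensin Defa24, with 2 UMIs in all Msmb-rich cells. Defensin genes are similar in sequence, and how reads that fit several genes were counted is not given in the sources used here, so their split is uncertain.

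The neighbours of Msmb (chr14:32142023-32158370, plus strand) were less alike. Of the measured genes, 7 overlap the window from 100 kb before to 100 kb after it. Among them Ncoa4, whose product directs ferritin to lysosomes, stood at 502 CPM against 168 CPM in the other cells. Its per-cell level ran from 0 to 1515 CPM with a median of 447 CPM. Oxnad1 stood at 37.8 CPM against 10.7 CPM. Timm23, a subunit of the mitochondrial import channel, stood lower, at 69.1 CPM against 135 CPM, as did Parg at 34.5 CPM against 63.3 CPM.

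Wfdc3, which encodes a whey acidic protein domain of the kind found in protease inhibitors, was found in 144 of 146 cells, at 0 to 14887 CPM with a median of 6639 CPM. Its summed level of 6666 CPM compared with 147 CPM in the other cells, a fold of 45.2 (44.4 to 46.1). Macrophages held 26.6 CPM. With cells cut down at random to 2000 UMIs each (3 members and 100 other cells were too shallow), Wfdc3 was found in 94.4% of Msmb-rich cells, 6.67% of the other cells and 3.77% of macrophages, against 98.6%, 36.8% and 30.2% unthinned.

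H2-Q10, a nonclassical class I histocompatibility gene known as a secreted product of liver, was less even. It was found in 122 cells, with a lowest level of 0, a median of 788 CPM and a highest of 2748 CPM. Its sum was 860 CPM against 21.7 CPM, a fold of 39.6 (37.6 to 41.7). Thinned shares were 60.8% of Msmb-rich cells, 1.56% of the other cells and 0% of macrophages, against 83.6%, 9.88% and 1.89% unthinned. Genes of the H2-Q family are similar, and reads may be split between them.

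Pcp4, a small calmodulin-binding peptide, stood at 315 CPM against 3.23 CPM, a fold of 97.5 (86.1 to 111). The Msmb-rich cells, with 10.6% of all kept UMIs, held 92.0% of the Pcp4 UMIs in the library. It was found in 44.8% of thinned Msmb-rich cells and 0.520% of the other cells, against 95.9% and 4.18% unthinned, and macrophages held 0 UMIs.

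Enzymes, surface proteins and other products made up most of the rest of the 30 highest genes. Mme, the cell-surface peptidase neprilysin, stood at 1189 CPM (0 to 2416 CPM per cell, median 1120) against 137 CPM, a fold of 8.69 (8.47 to 8.91). Fuca1, a lysosomal fucosidase, stood at 1067 CPM against 160 CPM, and Apof, an apolipoprotein, at 699 CPM against 74.0 CPM. Mgll, a lipase that breaks down monoacylglycerols, stood at 188 CPM against 5.37 CPM, and Sp5, a zinc finger transcription factor, at 140 CPM against 4.05 CPM. Ptprt, a receptor tyrosine phosphatase, stood at 308 CPM against 26.8 CPM.

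Muc19, a gel-forming mucin, was found in 91 cells with a median of 19.0 CPM and a highest level of 730 CPM. It stood at 92.9 CPM against 1.60 CPM. The others of the 30 were Prom2, Pdzk1, Upb1, Syt10, Lncbate1, Gramd3, Acrbp, Wipi1, Derl3, BB123696, Gm31243, Ceacam2, Ggt1 and Gm20711, at folds of 8.55 to 65.9.

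Pbsn, the second marker of the label, was found in 145 cells at 0 to 43724 CPM with a median of 17860 CPM. Its sum of 18826 CPM compared with 2967 CPM in the other cells, a fold of 6.35 (6.31 to 6.38). It did not set the Msmb-rich cells apart from Tgm4-rich cells, which held 18664 CPM.

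**Figure D2:**
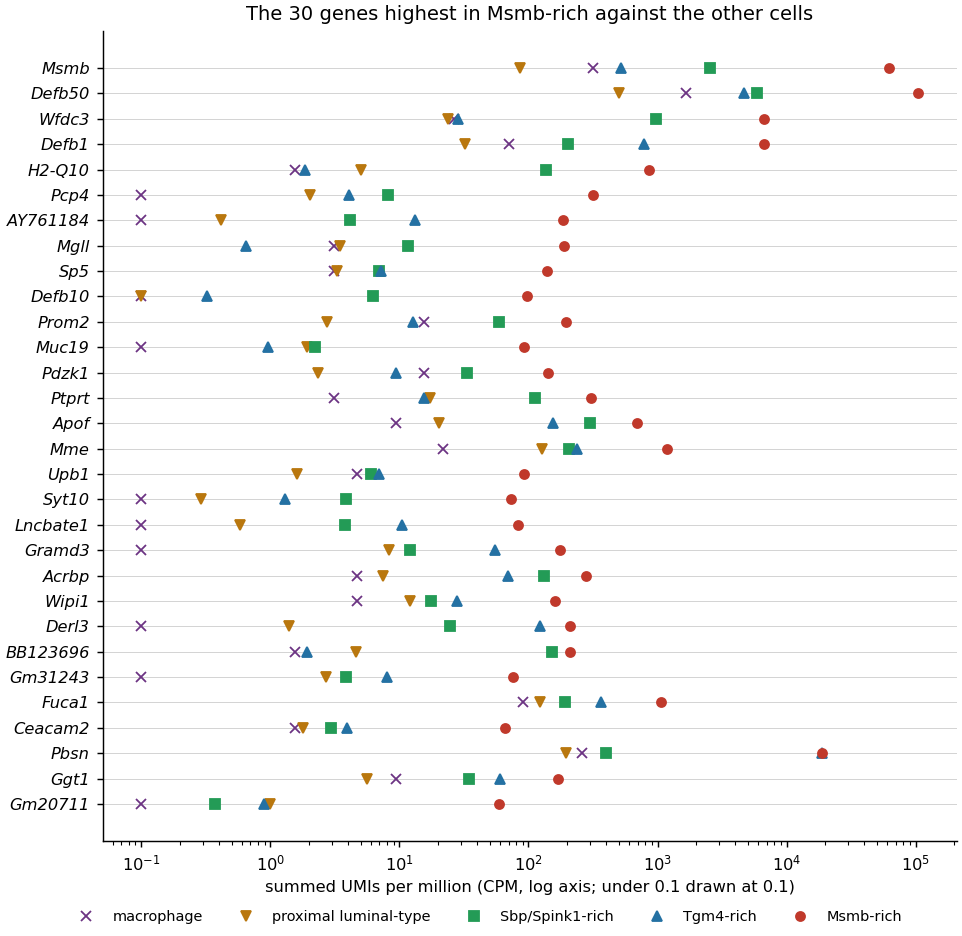
Summed level (x axis, CPM, log scale) of the 30 genes with the highest log2 ratio of Msmb-rich against other cells, in rank order, in 5 cell sets of the proximal library; the exact 95% counting intervals of the Msmb-rich values are narrower than the points. Defb50 stands at 103715 CPM in Msmb-rich cells, and Pbsn lies at nearly the same level in Tgm4-rich cells.

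The genes lowest in Msmb-rich cells were mostly secretions of other cells. The seminal vesicle secretion genes Svs5 and Svs4 stood at 55.3 CPM against 3466 CPM and 35.8 CPM against 904 CPM, and macrophages held 85.9 CPM and 40.6 CPM. Prol1 stood at 12.6 CPM against 679 CPM, and the basal and proximal luminal keratin Krt15 at 56.2 CPM against 1195 CPM. In sub-cluster 4 of the members, described below, Krt15 stood at 275 CPM, against 17.2 CPM in the other members. Apoe, an apolipoprotein abundant in macrophages, stood at 25.1 CPM against 1093 CPM, and Cd74, the invariant chain of class II histocompatibility molecules, at 6.04 CPM against 253 CPM. With all cells that carried macrophage, fibroblast, endothelial or basal markers left out, macrophages themselves included, the log2 ratio of Apoe was -2.98 instead of -4.97. Pate14, 9530053A07Rik, Spinkl and Spink5 completed the 12 lowest with Sbp and Spink1. The Sbp level of 1222 CPM lay near the 1124 CPM of macrophages, and 26.6% of its UMIs came from 1 cell.

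Tgm4-rich cells are, like Msmb-rich cells, secretory and rich in Pbsn. Of 11339 counted genes, 64 were at least 4-fold higher in Msmb-rich cells (0.564%) and 66 at least 4-fold lower (0.582%), with a median log2 ratio of -0.09. Wfdc3 stood at 6666 CPM against 28.4 CPM, a fold of 235 (212 to 262). The level in Tgm4-rich cells was near that of macrophages. With 5% free RNA subtracted, the log2 ratio of Wfdc3 was 9.45 instead of 7.44. H2-Q10 differed by a fold of 465 (310 to 734), from 860 CPM to 1.85 CPM. Mgll stood at 188 CPM against 0.643 CPM, BB123696 at 211 CPM against 1.93 CPM and the glycosyltransferase gene Abo at 376 CPM against 22.9 CPM.

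Of 31 counted genes for salt and fluid transport, 3 were at least 4-fold higher than in Tgm4-rich cells (Slc12a2, Fxyd3 and Aqp5) and 1 lower (Car2), with a median of 0.11. Of 24 tight junction and adhesion genes, 2 were higher (Cldn10 and Ceacam2) and 0 lower, but 21 lay below 0 and the median was -0.28. Cldn10, a claudin, stood at 487 CPM (0 to 1515 CPM per cell, median 440) against 9.003 CPM, a fold of 54.1 (44.9 to 65.9). Slc12a2, a sodium, potassium and chloride cotransporter, stood at 750 CPM against 58.4 CPM, a fold of 12.9 (11.9 to 13.9). Aqp5, a water channel, stood at 76.5 CPM against 3.70 CPM, although its median cell held none. Upk1a, a uroplakin of the urothelium, stood at 411 CPM against 31.4 CPM and was found in 97.3% of Msmb-rich cells, while the uroplakin Upk3a was at 0.

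The genes lower than in Tgm4-rich cells were led by Pate14, which is, with Tgm4, on the list of 4 anterior-type markers. Pate14 stood at 30.1 CPM against 7613 CPM, 9530053A07Rik at 221 CPM against 29519 CPM and Tcaf3 at 69.6 CPM against 5563 CPM. Ren1, which encodes renin, stood at 1.81 CPM against 988 CPM, and C1rb, a complement protease gene, at 2.82 CPM against 1084 CPM. Gm37223, Ms4a5, Gsdma and Fgl1 completed the 10 lowest with Tgm4. For Pate14, 34.1% of the UMIs in Msmb-rich cells came from 1 cell.

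Against Sbp/Spink1-rich cells, 98 of 10944 genes were at least 4-fold higher in Msmb-rich cells (0.895%) and 27 at least 4-fold lower (0.247%). The 4 genes of the rule supplied 51.3% of the UMIs of Sbp/Spink1-rich cells and 6.46% of those of Msmb-rich cells. With these 4 genes left out of the totals, the counts were 49 higher and 71 lower, and the median log2 ratio over all genes moved from 0.36 to -0.17, a shift of -0.53. The main counts against these cells are therefore given under both totals, and those under other settings with the rule's genes included.

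Pbsn stood at 18826 CPM against 400 CPM, a fold of 47.0 (45.6 to 48.5). Defb1 was 33.0-fold higher (31.6 to 34.4), and Rnase1, a secreted ribonuclease, stood at 1014 CPM against 24.5 CPM. Cst3, the protease inhibitor cystatin C, stood at 1340 CPM against 99.5 CPM, and Hpgd, which inactivates prostaglandins, at 333 CPM against 20.9 CPM. With the rule's genes out of the totals, the log2 ratios of Pbsn, Defb1, Rnase1, Cst3 and Hpgd were 4.60, 4.07, 4.18, 2.75 and 2.79. Without the 5% of cells with the most UMIs, that of Defb1 was 6.73, against 4.98 with all cells. Spink5, a multidomain protease inhibitor, stood at 8.46 CPM against 1522 CPM, the deacetylase gene Hdac9 at 5.14 CPM against 649 CPM and the stress-induced gene Nupr1 at 37.3 CPM against 1723 CPM.

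Gene lists describe the Msmb-rich cells by function. They were chosen with earlier results of these data known, and each count is set beside the share of all genes given above for its comparison.

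The ER list, which holds genes for translocation, folding and degradation of secreted proteins, lay above the other cells. Of 60 counted genes, 4 were at least 4-fold higher and 0 lower, 50 had a log2 ratio above 0, and the median was 1.07 against -0.08 for all genes. Pdia6, a disulfide isomerase, stood at 642 to 5671 CPM per cell with a median of 2209 CPM, and at 2276 CPM against 438 CPM in sum. Derl3 and Edem1, which take part in the disposal of misfolded proteins, stood at 209 CPM against 23.04 CPM and 239.2 CPM against 46.5 CPM, and Sdf2l1 at 453 CPM against 104 CPM. Hspa5, the chief ER chaperone, stood at 3748 CPM against 1937 CPM.

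The same list was not higher than in Tgm4-rich cells, where the median was -0.14, with 0 of 58 genes 4-fold higher and 1 lower. That gene was Asns, which makes asparagine, at 29.3 CPM against 224 CPM. Against Sbp/Spink1-rich cells 10 of 57 were higher, with a median of 1.26. With the rule's genes out of the totals it was 0 of 57 and a median of 0.37, against -0.17 for all genes.

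The list of androgen response genes holds cofactor genes such as Ncoa4 as well as target genes. Its median is therefore not a measure of androgen response. Of its 41 counted genes, 3 were at least 4-fold higher than in the other cells, Pbsn and Mme among them. Another 2 were lower (Ndrg1 and Pmepa1), and the median was -0.01. Fkbp5, Homer2 and Mme were the 3 of 36 at least 4-fold higher than in Tgm4-rich cells, at 202 CPM, 58.1 CPM and 1189 CPM against 25.6 CPM, 5.55 CPM and 238.7 CPM.

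Among 55 counted lineage transcription factors, 1 was at least 4-fold higher than in the other cells and 5 were lower, with a median of -0.37. The 5 were Meis2, Sox4, Klf5, Runx1 and Foxq1. Against Tgm4-rich cells, 0 of 45 were higher and 1 lower, with a median of -0.02. Klf5 stood at 48.7 CPM against 379 CPM in the other cells and 618 CPM in proximal luminal-type cells. Hoxb13, a homeobox gene of the prostate, stood at 60.7 to 2051 CPM per cell with a median of 286 CPM. In sum it stood at 280 CPM, with 303 CPM in Tgm4-rich and 292 CPM in Sbp/Spink1-rich cells. With the rule's genes out of the totals, its log2 ratio against Sbp/Spink1-rich cells was -0.98 instead of -0.06. Gata2 stood at 58.6 CPM, against 183 CPM in Tgm4-rich and 4.52 CPM in Sbp/Spink1-rich cells.

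Of the 13 genes of the prolactin receptor and Stat5 list, 0 were past 4-fold against the other cells or Tgm4-rich cells. Against Sbp/Spink1-rich cells 2 of 12 were higher. Prlr, the receptor, stood at 393 CPM against 89.5 CPM, and Stat5a, the transcription factor it activates, at 115 CPM against 10.9 CPM. With the rule's genes out of the totals, Stat5a alone passed, at a log2 ratio of 2.04.

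Keratins lay low. Of 16 counted genes, 10 were at least 4-fold lower than in the other cells and 0 higher, and the median was -2.28. Krt8 and Krt18 form the filament pair of luminal cells. Krt8 stood at 36.6 to 5985 CPM per cell with a median of 357 CPM, and at 573 CPM in sum against 2680 CPM. Krt18 stood at 1233 CPM against 1557 CPM. Krt19, a keratin of simple epithelia, stood at 220 CPM against 1656 CPM, and was the 1 of 13 that was 4-fold lower than in Tgm4-rich cells, which held 987 CPM. The basal keratins Krt5 and Krt14 stood at 2.92 CPM and 5.14 CPM. The 7 basal markers, which also include Krt15 and Dcn, summed to 349.5 CPM. That sum was 74.9 CPM in Tgm4-rich, 91.1 CPM in Sbp/Spink1-rich and 2145 CPM in the other cells.

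The zinc list, of transporters and the zinc-binding metallothioneins, had 1 of 23 genes higher and 1 lower than in the other cells, with a median of 0.31. Slc30a10, a metal exporter, stood at 35.9 CPM against 0.903 CPM in the other cells, 0.482 CPM in Tgm4-rich cells and 2.03 CPM in Sbp/Spink1-rich cells. It was found in 78.1% of Msmb-rich cells, and macrophages held 0 UMIs. The importer Slc39a8 stood at 19.9 CPM against 139 CPM. The metallothionein Mt1 stood at 2510 CPM, against 10203 CPM in Tgm4-rich cells.

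Of 43 counted genes of citrate and mitochondrial carbon metabolism, 0 were past 4-fold in either direction against the other cells, with a median of -0.06. In the polyamine and methionine list, 1 of 32 was higher and 1 lower. Cbs, which makes cystathionine from homocysteine, stood at 108 CPM against 18.0 CPM in the other cells, 18.1 CPM in Tgm4-rich and 10.98 CPM in Sbp/Spink1-rich cells. Sat1, which breaks down polyamines, stood at 87.2 CPM against 402 CPM.

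Of 59 counted signalling genes, 1 was at least 4-fold higher and 8 lower than in the other cells, with a median of -0.66. Bmpr1b, a receptor for bone morphogenetic proteins, stood at 1476 CPM (0 to 4462 CPM per cell, median 1167), against 342 CPM in the other cells and 325 CPM in Tgm4-rich cells. Id1, a target gene of those receptors, was among the lower genes, at 32.9 CPM against 224 CPM in the other cells and 356 CPM in Tgm4-rich cells. Wnt4 stood at 78.9 CPM against 11.5 CPM in Tgm4-rich and 10.7 CPM in Sbp/Spink1-rich cells, and at 113 CPM in the other cells.

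Among secretory products, 6 of 38 counted genes were higher and 17 lower than in the other cells, with a median of -1.61, and 3 of the 4 rule genes are among those 17. Besides Msmb, Pbsn, Defb50, Wfdc3 and Apof, the 6 held Lrg1, at 60.1 CPM against 6.30 CPM. Of 29 protease inhibitors, 2 were higher (Wfdc3 and Spink11) and 7 lower, with a median of -0.63. Without Spink1, a gene of the rule, 6 were lower and the median was -0.45. Of 22 antibacterial and acute-phase genes, 3 were higher (Defb1, Defb10 and Defb50) and 2 lower, with a median of -0.64. Tight junction and adhesion genes had 1 of 27 higher (Ceacam2) and 4 lower, at a median of -0.77. Salt and fluid transport had 0 of 44 higher and 6 lower, at -0.37. Antigen presentation and interferon genes had 0 of 38 higher and 4 lower, at -0.47. Immediate-early and heat-shock genes had 0 of 34 higher and 3 lower, at -0.30. Detoxification enzymes had 0 of 45 higher and 3 lower, at -0.25, serine proteases 0 of 8 either way, and cell cycle genes 0 of 19 higher and 1 lower.

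**Figure D3:**
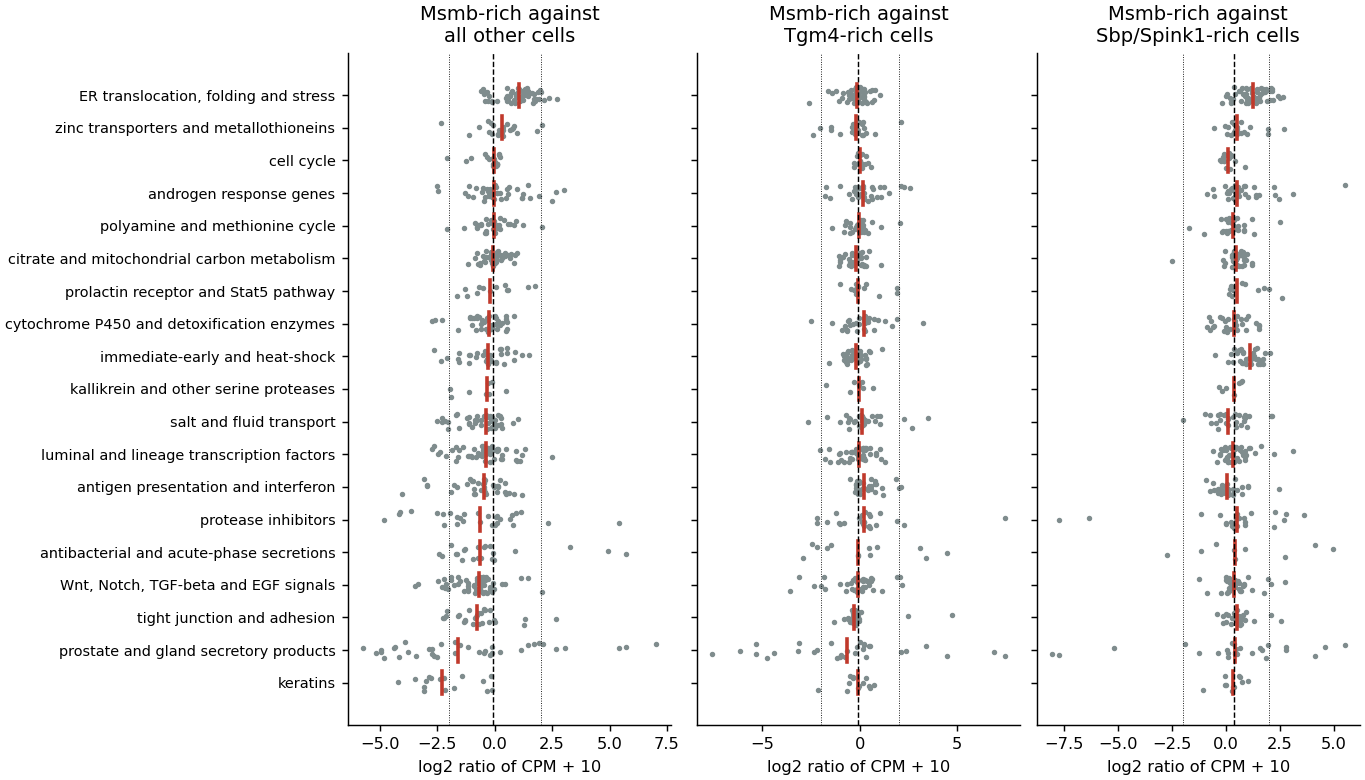
Log2 ratio of CPM plus 10 (x axis) of each counted gene (grey points) of 19 lists, with each list's median (red bar), for Msmb-rich cells against all other cells, Tgm4-rich cells and Sbp/Spink1-rich cells; the dashed line is the median of all counted genes and the dotted lines are 4-fold. The ER list lies at a median of 1.07 against all other cells and -0.14 against Tgm4-rich cells, and the keratins at -2.28 and -0.08. The totals include the rule's genes, and against Sbp/Spink1-rich cells most list medians lie below 0 without them.

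The Msmb-rich cells varied among themselves. When divided by their Msmb share, 5 cells held 1% to 2%, 48 held 2% to 5%, 87 held 5% to 10% and 6 held 10% or more, with median depths of 54338, 61581, 68111 and 74736 UMIs. With Msmb left out of the total, Defb50 stood at 48181 CPM in the first group, 87145 CPM in the second, 124475 CPM in the third and 126490 CPM in the fourth. Wfdc3 stood at 680 CPM, 5396 CPM, 8058 CPM and 10431 CPM, and Pbsn at 5290 CPM, 14307 CPM, 23650 CPM and 21276 CPM. The first and last groups are small.

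Over the 146 cells of this 1 library, with Msmb out of the total, the Msmb share had a Spearman correlation of 0.66 with Defb50, 0.67 with Azgp1, 0.54 with Defb1, 0.47 with Wfdc3 and 0.37 with Pbsn. With Krt19 it was -0.42 and with Tpt1 -0.40. These are descriptions over cells that share 1 library and differ in depth. The correlation of each of these genes with depth lay between -0.11 and 0.15.

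Clustering the 146 cells on variable genes without the 4 rule genes gave 4 sub-clusters of 51, 38, 36 and 21 cells. Genes used in clustering are given as a description. A lower resolution gave 2 clusters and a higher one 5, so the number of sub-clusters depends on the setting. All 4 sub-clusters were rich in Msmb, with medians of 6.80%, 5.17%, 6.72% and 4.44% of UMIs, and in Defb50, with medians of 10.55%, 10.1%, 12.7% and 8.61%. Their median depths were 75254, 63702, 59092 and 63701 UMIs.

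Sub-clusters 1 and 2 shared the main products and differed in some lesser ones. Sub-cluster 1 was led by Pkd1l2, Cpe, Spink1, Sema4d and Rrm2 (for Spink1 and Rrm2, 48.5% and 54.7% of the UMIs of all members came from 1 cell), with Aqp5 at 123 CPM against 45.5 CPM in the other members and Dcn at 429 CPM against 185 CPM. Sub-cluster 2 was led by Spink11, a Kazal-type protease inhibitor, at 163 CPM against 7.91 CPM, followed by Pate9 (696 CPM against 88.4 CPM), Cd52, Tgm4 and Serpine2 (216 CPM against 42.6 CPM). Among the genes lower in sub-cluster 2 were Aqp5, Muc19 and Smgc, a mucin-related gene of salivary glands, with Smgc at 0 UMIs.

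Counted cell by cell, 35 members held at least 100 CPM of Muc19 and 21 at least 100 CPM of Spink11, and 0 members held both. Muc19 and Serpine2 met in 1 cell, 2.86% of the 35 and 2.08% of the 48 with Serpine2. Aqp5 and Pate9 met in 3 cells, 9.09% of the 33 with Aqp5 and 6.82% of the 44 with Pate9, while 30.1% of all members held Pate9 at that level. These pairs were picked after the clusters were seen. H2-Q10 followed the same division, at 100 CPM or more in 48 of 51 cells of sub-cluster 1 and 14 of 38 of sub-cluster 2. Wfdc3 reached that level in 50 and 34 cells.

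Sub-cluster 3 was led by Pate14, Lncppara and Zbtb16 (157 CPM against 68.1 CPM), a zinc finger gene that responds to steroid hormones. For Pate14, 1 cell held 34.1% of the UMIs of all members, and the median in sub-cluster 3, 9.21 CPM, was the lowest of the 4. It was low in Cxcl10, Egr2 and Thbs1, and its median mitochondrial share, 5.52%, was the highest of the 4.

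Sub-cluster 4 was led by Psca (856 CPM against 20.6 CPM in the other members), S100a6 (1736 CPM against 68.4 CPM), Plaur, Lgals3 and Clu, and also by Ly6a and Krt7. Psca, Clu, Ly6a and Krt7 are on the list of 9 proximal luminal markers, all of which were detected in the Msmb-rich cells. The list's summed level had a median of 185 CPM per Msmb-rich cell and a highest value of 7541 CPM, against a median of 10333 CPM in proximal luminal-type cells. The signal sat in few cells: the 5 highest cells held 79.5% of the Psca UMIs and 68.5% of those of S100a6, and 8 of 21 cells reached 100 CPM of Psca. The part of a second cell in the same droplet was not tested.

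**Figure D4:**
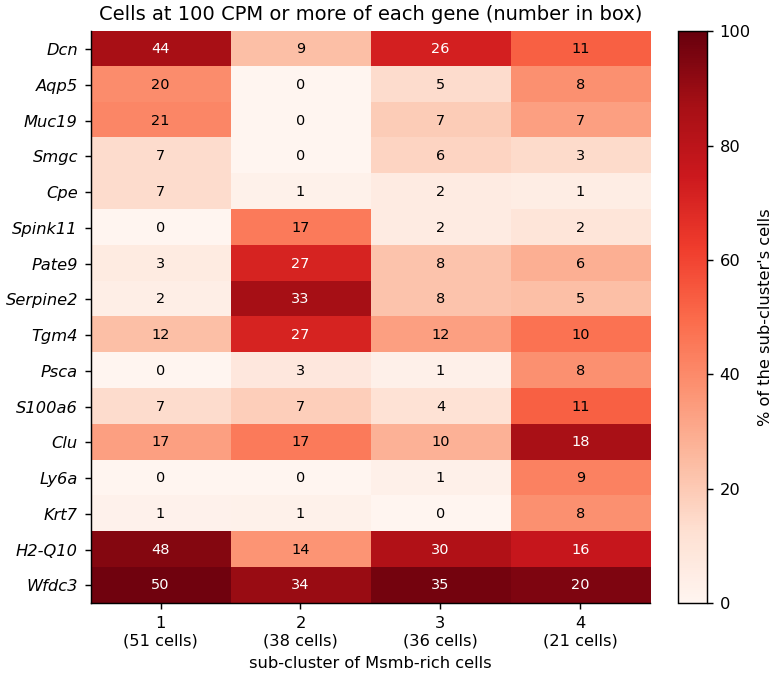
Share of cells in each sub-cluster of Msmb-rich cells (columns) that held at least 100 CPM of a gene (rows), as a percentage (colour) with the number of cells in each box. Spink11, Pate9 and Serpine2 are concentrated in sub-cluster 2, which holds 0 such cells for Aqp5 and Muc19, and Psca, Ly6a and Krt7 in sub-cluster 4.

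Dcn, a proteoglycan gene usually read as a fibroblast marker, was found in 88.4% of Msmb-rich cells, at 283 CPM (273 to 294) with a median of 154 CPM per cell and a highest of 3584 CPM. Tgm4-rich cells held 19.7 CPM, proximal luminal-type cells 26.7 CPM and fibroblasts 6087 CPM. Of the 6 fibroblast markers, summed to 295 CPM, Dcn was the single one found in at least 25% of Msmb-rich cells. The collagens Col1a1, Col1a2 and Col3a1 stood at 3.32 CPM, 4.63 CPM and 2.82 CPM, of which 66.7%, 69.6% and 60.7% came from 1 cell, against 679 CPM, 772 CPM and 1087 CPM in fibroblasts. Of the 90 Msmb-rich cells with at least 100 CPM of Dcn, 44 lay in sub-cluster 1 and 9 in sub-cluster 2.

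The same rule applied to the ventral library chose 48 of 1995 kept cells, 2.41% (1.78% to 3.18%). Values are set side by side, because the dissected region and the kit version cannot be told apart. These 48 cells held a median of 22783 UMIs, 5.41% Msmb and 16.3% Defb50, against 5.84% Msmb in the proximal library. Defb50 stood at 167911 CPM in the ventral and 103715 CPM in the proximal Msmb-rich cells, Wfdc3 at 7080 CPM and 6666 CPM, Defb1 at 4745 CPM and 6652 CPM, H2-Q10 at 617 CPM and 860 CPM, and Pcp4 at 246 CPM and 315 CPM. Pbsn stood at 10955 CPM and 18826 CPM, and Gata2 at 24.1 CPM and 58.6 CPM.

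Against the other cells of the ventral library, 29 of the 30 genes named as highest had enough UMIs. Of these, 19 were at least 4-fold higher in the ventral Msmb-rich cells, and 28 lay above 0, with a median log2 ratio of 2.26. Over all 11442 genes counted there, 42 were at least 4-fold higher (0.367%) and the median was 0.12. Of the 1995 kept ventral cells, 1708 were Sbp/Spink1-rich, and these held 94.6% of the UMIs. In the proximal library such cells were 4.34% of kept cells, so this contrast is unlike the proximal one in which the 30 genes were picked. Only counts with the rule's genes in the totals are given for it. Msmb is of the rule and counts among the 19. Acrbp was the exception below 0, at 116 CPM against 183 CPM.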

How the data were processed

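Single-cell libraries of 2 dissections of mouse prostate were measured, and the Msmb-rich cells of 1 were analysed. Each library was deposited as unnormalized UMI counts of 32285 genes in cell barcodes. Per the file headers the matrices come from Cell Ranger 7.0.0, and they were made against mm10 per the submitters' processing notes. The annotation and the treatment of intronic and multi-mapping reads are not given in the sources used here. Free RNA was not removed, and it can add secretory UMIs to cells of any type.

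Counts were summed over the cells of a set and scaled to CPM with exact 95% Poisson intervals. Ratios of CPM plus 10 were described for genes with at least 50 UMIs over both sides, and called past 4-fold. With 1 library per group no test was made. Fold intervals are exact and conditional on the total. Shares of cells were also given after thinning each cell to 2000 UMIs. Members and gene lists were chosen with earlier results of these data known. Named genes are the 30 highest and 12 lowest against the other cells, the 10 highest and 10 lowest against Tgm4-rich and Sbp/Spink1-rich cells (at least 50 UMIs and 10% of cells on the higher side, without mitochondrial, ribosomal, immunoglobulin and T cell receptor genes), and list genes as examples. A few list members are not reported here. Pairs of genes within cells, the genes counted at 100 CPM and the chromosome windows were chosen after values were seen. Sub-clusters used scanpy 1.11.5 with the Leiden method at resolution 0.5 and seed 0. Positions of all 823 genes looked up matched GENCODE M21 on GRCm38 by identifier. Computation used Python 3.11.15, and the steps were tested on simulated data. Alternatives covered the rule's limits, cell filters, mixed and deep cells, thinning, pseudocount, UMI minimum, totals, cell weights, free RNA and clustering.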

Additional observations from a re-analysis of the deposited data

How the results depend on the processing

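Of the 82 ratios of named genes, 0 changed sign under the alternatives run. These genes were named for their extreme ratios in the same data, so a change of sign was unlikely and nothing is read from its absence. With a pseudocount of 50 CPM some fell under 4-fold, down to a log2 ratio of 1.09 for Gm20711 against the other cells. Against Sbp/Spink1-rich cells, totals without the rule's 4 genes turned the median over all genes from 0.36 to -0.17. The medians of most gene lists also turned below 0, such as the androgen response list from 0.51 to -0.08 and the lineage factors from 0.35 to -0.24. Those of the ER, secretory product, protease inhibitor, prolactin and Stat5, antibacterial and immediate-early lists stayed above 0. The share of Msmb-rich cells was 2.51% with a Msmb minimum of 5%, 5.45% without any cell that carried macrophage, fibroblast, endothelial or basal markers, which also removes those cell types, and 2.87% without the 5% of cells with the most UMIs. With a pseudocount of 1 CPM, the higher and lower genes numbered 137 and 1190 against the other cells, 222 and 197 against Tgm4-rich cells and 316 and 106 against Sbp/Spink1-rich cells. With 50 CPM they numbered 15 and 69, 19 and 27, and 28 and 8. With each cell thinned to 2000 UMIs, lower genes against the other cells numbered 479, higher genes against Tgm4-rich cells 26, and higher and lower genes against Sbp/Spink1-rich cells 54 and 13. Totals without the rule's 4 genes gave 49 and 71 against Sbp/Spink1-rich cells. Weighting each cell equally gave 394 lower genes against the other cells. A clustering resolution of 0.3 gave 2 sub-clusters. The causes of these shifts were not tested. The remaining counts and shares stayed within the limits used to call a value moved. For a count, the limit concerns the number of genes and not which genes they are. With cells thinned to 2000 UMIs, 62 genes were at least 4-fold higher than in the other cells. Of the 60 found with all UMIs, 37 were among them. Of 1394 values, from these 82 ratios under 17 settings, 584 moved beyond their counting intervals. Leaving out sub-cluster 4 and leaving out members under 10000 UMIs were added after seeing the data. Sbp, Svs4 and Svs5 in Msmb-rich cells lie near or below their level in macrophages, so expression beyond free RNA was not detectable for them. No paired analysis was possible because each group has 1 library.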
